A study of Mus musculus with 6 samples.

Results

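The RNA levels of the genes for the eukaryotic translation initiation factors were followed in mouse melanoma cells treated with fenofibrate. The genes were chosen by name: protein-coding genes of the deposited table whose symbol begins with Eif1 to Eif6, without the Eif2ak kinases. This gave 51 of 54838 genes in the table, of which 22026 are protein-coding. The rule uses no measured value, although earlier results of these data were known.

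Initiation factors bring a ribosome to the start codon of an mRNA. The small ribosomal subunit, held by eIF1, eIF1A, eIF3 and eIF5, receives the initiator tRNA from eIF2 and is recruited to the mRNA cap by eIF4F, which is made of the cap-binding protein eIF4E, the scaffold eIF4G and the RNA helicase eIF4A. The 4E-BPs are repressors that hold eIF4E away from eIF4G, and kinases that phosphorylate eIF2 slow initiation in stressed cells. In melanoma, as in other tumours, eIF4F is known as the point where growth signals meet the translation machinery.

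Bulk RNA sequencing of mRNA-enriched RNA gave 6 libraries, 3 of B16F10 cells treated with fenofibrate at 50 µM and 3 of control B16F10 cells. B16F10 is a mouse melanoma line, and fenofibrate is a drug given to lower blood lipids, which acts through PPARα. The labels call the libraries biological triplicates, give neither the treatment time nor what the control cells received, and give no genotype or added agent other than fenofibrate. The cell line field counts up from B16F10 to B16F15 over the 6 samples. If that field is meant as written, line and treatment cannot be told apart.

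The libraries held 13540038 to 14710856 counts, so that a count of 0 in 1 library allows up to 0.204 to 0.222 CPM (counts relative to the library total), a limit that covers counting error only. Levels are given as raw counts per library or as normalised CPM, the CPM after scaling the libraries with TMM. Nothing in the labels says that the triplicates were separate cultures, so that p-values measure the spread between these samples. The summed level of 8 melanocyte markers was 21900 to 23100 normalised CPM in control and 27600 to 29400 in fenofibrate libraries, with 6 of 8 genes called higher. Summed fibroblast, leukocyte, epithelial and endothelial markers stayed at 6.71 normalised CPM or below in every library, with Adgre1, Cd3e, Krt5, Cdh5, Tek and Kdr at 0. Of these, the leukocyte sum was 1.88 to 3.27 in control and 3.89 to 6.71 in fenofibrate libraries, and the fibroblast sum 1.53 to 2.68 and 0.92 to 1.13, neither with overlap. The part of these marker differences in the results was not tested. In bulk RNA, fewer cells of a type and less RNA per cell cannot be told apart.

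With fenofibrate, 22 of the 48 initiation factor genes that could be tested changed, 6 rising and 16 falling. The call required an adjusted p under 0.05 (Benjamini-Hochberg) in edgeR's quasi-likelihood test over the 13629 genes tested. By this rule 39.1% of all genes were called, 19.5% higher and 19.5% lower, against 45.8% of the initiation factor genes. The changes were small: the largest was 1.44-fold, for Eif1. No initiation factor gene was called with a fold of 1.5 or more, which 14% of all genes were. The median size of the change was 1.1-fold in the initiation factor genes and 1.19-fold in all genes, and the median log2 fold change was -0.03 and -0.00.

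Scaling moved the split between rises and falls. With library totals in place of TMM, 4 initiation factor genes were called higher and 20 lower, and the share of all genes' calls that were higher went from 50% to 39.9%. No called initiation factor gene changed its sign in any of the 14 alternatives, and 16 of the 22 were called in all of them. The others were Eif2b4, Eif2d, Eif3a, Eif4g2, Eif4h and Eif6. Of the 26 tested genes not called, 6 were called in some alternative, namely Eif1ad, Eif2b1, Eif2b5, Eif3l, Eif4ebp1 and Eif5.

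The groups did not overlap for 29 of the 48 tested genes, 8 with every fenofibrate library above and 21 with every one below. Over all genes tested, 53.3% did not overlap, 26.4% with fenofibrate above and 26.9% below. Added up over the 51 genes, the level was 11644 ± 212 normalised CPM in control and 11361 ± 63.5 in fenofibrate libraries (mean ± SD, n = 3 each). The initiation factor genes took 1.16% to 1.21% of the counts in control and 1.11% to 1.12% in fenofibrate libraries.

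**Figure D1:**
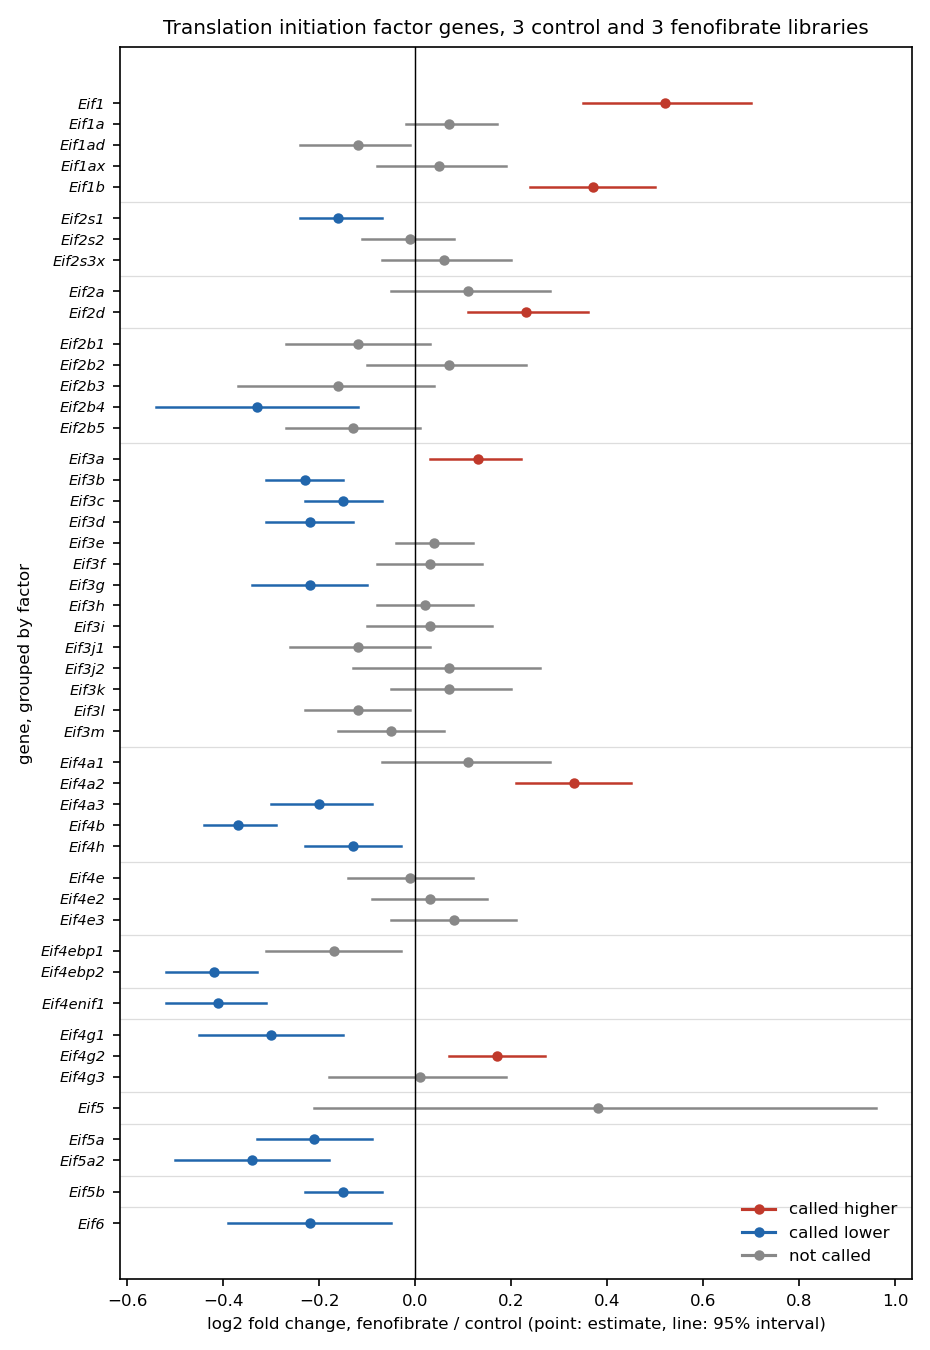
Log2 fold change, fenofibrate over control, of the 48 tested initiation factor genes (points) with 95% intervals (lines), grouped by factor. The estimates lie between -0.42 (Eif4ebp2) and 0.52 (Eif1), and Eif5 has the widest interval, from -0.21 to 0.96.

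At the start codon, 2 of the 5 genes of the eIF1 group rose and the other 3 were not called. This is 40% called, against 39.1% of all genes. Eif1 encodes the factor that keeps the scanning ribosome from settling on a wrong start codon, and Eif1b its close paralog. Both rose, and the genes for eIF1A were not called. The genes lie at chr11:100319885-100322096 (Eif1) and chr9:120492232-120495330 (Eif1b) of GRCm38, both on the plus strand.

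The promoters of these 2 rising genes and of 2 genes that fell, Eif4ebp2 and Eif4g1, are shown as examples from the start codon and the cap. Eif4enif1 and Eif4g2, also called at the cap, are not shown. Each runs from 250 bases before to 50 bases after the start of the RefSeq gene in GRCm38.p6, 5′ to 3′ on the gene's strand. The intervals are chr11:100319699-100319998 for Eif1 (plus), chr9:120492356-120492655 for Eif1b (plus), chr10:61452620-61452919 for Eif4ebp2 (minus) and chr16:20672477-20672776 for Eif4g1 (plus). The windows of Eif1b and Eif4g1 lie wholly inside the genes as bounded in the deposited table, which begin at 120492232 and 20668313. In none of the genes shown is the RefSeq start the first base of the counted gene. Capitals mark matches on either strand to the E-box CACGTG or to the ETS motif CCGGAAG.
Eif1: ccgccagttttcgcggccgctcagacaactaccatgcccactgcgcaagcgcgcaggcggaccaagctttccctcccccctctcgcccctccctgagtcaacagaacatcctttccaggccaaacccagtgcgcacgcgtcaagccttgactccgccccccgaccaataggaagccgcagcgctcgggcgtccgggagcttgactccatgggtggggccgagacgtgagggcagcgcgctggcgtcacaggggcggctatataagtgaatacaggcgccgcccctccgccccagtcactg
Eif1b: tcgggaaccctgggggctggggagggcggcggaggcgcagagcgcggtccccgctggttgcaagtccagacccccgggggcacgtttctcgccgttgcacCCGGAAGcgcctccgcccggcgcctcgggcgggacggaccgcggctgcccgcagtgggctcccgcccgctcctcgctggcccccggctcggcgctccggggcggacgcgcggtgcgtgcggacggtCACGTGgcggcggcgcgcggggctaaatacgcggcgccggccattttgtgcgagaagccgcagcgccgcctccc
Eif4ebp2: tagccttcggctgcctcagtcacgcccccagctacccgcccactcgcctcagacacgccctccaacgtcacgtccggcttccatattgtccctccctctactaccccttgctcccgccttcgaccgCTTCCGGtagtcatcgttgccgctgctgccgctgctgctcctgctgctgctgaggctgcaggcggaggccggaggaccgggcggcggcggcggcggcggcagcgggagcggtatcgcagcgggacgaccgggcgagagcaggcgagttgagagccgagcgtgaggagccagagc
Eif4g1: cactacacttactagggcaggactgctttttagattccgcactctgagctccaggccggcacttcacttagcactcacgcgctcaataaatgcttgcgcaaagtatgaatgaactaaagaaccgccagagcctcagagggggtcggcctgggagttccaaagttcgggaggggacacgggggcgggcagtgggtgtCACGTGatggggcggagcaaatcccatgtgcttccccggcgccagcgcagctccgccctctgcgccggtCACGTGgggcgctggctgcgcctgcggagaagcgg

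The E-box was found at -54 and at 16 from the start of Eif4g1 and at -24 in Eif1b. The ETS motif was found at -124 in Eif4ebp2 and at -150 in Eif1b, and neither motif was found in the Eif1 window. The 2 motifs do not share positions in these windows. Of all 32851 RefSeq promoters of this length, 7.15% held the E-box and 8.86% the ETS motif. A share over the initiation factor genes would be void, because 39 of 51 (76.5%) had a promoter in the table, under the 80% needed. These matches describe letters and say nothing on which factor binds there.

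Eif1 had 2756, 2852 and 3045 counts in the control libraries and 4111, 4425 and 3810 in the fenofibrate libraries. Every fenofibrate library was above every control library. The level went from 206 ± 12.8 to 296 ± 27.3 normalised CPM (SD, n = 3 each), a log2 fold change of 0.52 ± 0.08 (SE) or 1.44-fold (edgeR, adjusted p = 0.0015).

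Eif1b had 456, 474 and 461 counts in control and 562, 617 and 607 in fenofibrate libraries, again without overlap. Its level rose from 33.1 ± 0.296 to 42.7 ± 0.824 normalised CPM, with a log2 fold change of 0.37 ± 0.06 (edgeR, adjusted p = 0.00192). Exons of Eif1b overlap those of the antisense gene D830035M03Rik. Since the counting is not stated to use strand, reads of the pair cannot be told apart.

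Among the other genes of this group, Eif1a and the X-linked Eif1ax encode eIF1A, which opens the small subunit for scanning together with eIF1. Their log2 fold changes were 0.07 and 0.05. For Eif1ad, which encodes a protein with an eIF1A-like domain, the value was -0.12 (adjusted p = 0.0808, edgeR). Its fenofibrate libraries all lay below the controls, and it was called lower in 3 of 14 alternatives, with library totals and in both limma fits. Its exons overlap Banf1 on the other strand.

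Annotated pseudogenes of Eif1 also rose. Eif1-ps2 had 75, 86 and 87 counts in control and 107, 134 and 111 in fenofibrate libraries, a log2 fold change of 0.51 (edgeR, adjusted p = 0.0208). For Eif1-ps1 the value was 0.50 (adjusted p = 0.0376). Reads of the gene and its copies could be split between them in counting, so the copies' counts were added to Eif1, which then had a log2 fold change of 0.52 ± 0.07 (edgeR, adjusted p = 0.00139).

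eIF5 and eIF5B act after eIF1, eIF5 by triggering GTP hydrolysis on eIF2 and eIF5B by joining the large ribosomal subunit. Eif5 had 8208, 4457 and 4005 counts in control and 6321, 7315 and 7955 in fenofibrate libraries. Control 1 was the highest of all 6 libraries and the other controls the lowest. Its log2 fold change was 0.38 ± 0.25 with a 95% interval from -0.21 to 0.96 (edgeR, adjusted p = 0.268). Without control 1 the value was 0.78 (adjusted p = 0.000745), so this 1 library decides the call. An exon of Eif5 holds the small nucleolar RNA Snora28 on the same strand.

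Eif5b had 4980, 5075 and 4897 counts in control and 4116, 4607 and 4697 in fenofibrate libraries. All fenofibrate libraries were below the controls, and the gene fell, with a log2 fold change of -0.15 ± 0.04 (edgeR, adjusted p = 0.0129). Its exons overlap Rev1 on the other strand. The count of Eif1 and Eif1b per Eif5b count, a ratio chosen after the values were seen, was 0.645, 0.655 and 0.716 in control and 1.14, 1.09 and 0.94 in fenofibrate libraries. A two-sided exact permutation test over the 20 splits gave p = 0.1, the smallest that 3 against 3 libraries allow. This outcome was fixed beforehand, because every fenofibrate library was above the controls for Eif1 and Eif1b and below them for Eif5b.

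**Figure D2:**
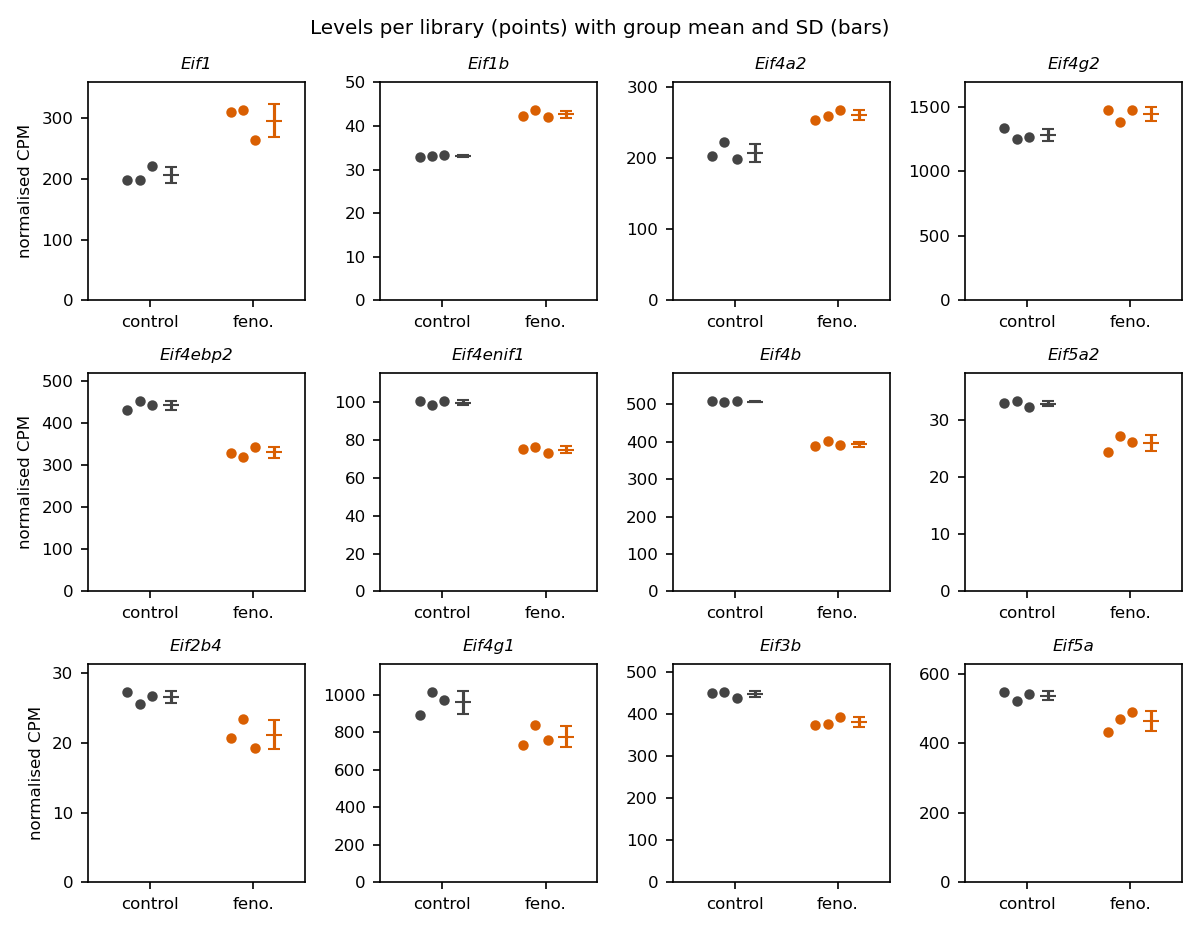
Normalised CPM of 12 initiation factor genes in each library (points), with group mean and SD (bars) and axes that start at 0. The upper row shows 4 genes called higher and the lower rows 8 called lower, and in each panel the groups do not overlap.

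eIF2 carries the initiator tRNA and eIF2B reloads it with GTP after each round. Of the 8 genes of these complexes that were tested, 2 fell, Eif2s1 and Eif2b4, and none rose (25% called, against 39.1% of all genes). Eif2s1 encodes the alpha subunit, the one that stress kinases phosphorylate. It had 3549, 3823 and 3674 counts in control and 3111, 3362 and 3370 in fenofibrate libraries, which did not overlap. The level went from 263 ± 6.25 to 235 ± 2.16 normalised CPM, a log2 fold change of -0.16 ± 0.04 (edgeR, adjusted p = 0.0108).

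The other subunits of eIF2 were not called. Eif2s2, the beta subunit, had a log2 fold change of -0.01, and Eif2s3x, the gamma subunit encoded on the X chromosome, of 0.06 ± 0.06 (edgeR, adjusted p = 0.413) from 1053, 1170 and 1152 against 1143, 1207 and 1156 counts. The groups overlapped for both. Eif2s3y, the Y-linked copy of the gamma subunit gene, had 1 count in fenofibrate 1 and 0 in the other 5 libraries and could not be tested.

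Of the eIF2B subunits, Eif2b4, the delta subunit, fell. Its counts were 379, 367 and 369 in control and 275, 331 and 278 in fenofibrate libraries, without overlap. The log2 fold change was -0.33 ± 0.09 (edgeR, adjusted p = 0.0242), and the call held in 9 of 14 alternatives. It was lost, among others, without control 1, control 3, fenofibrate 1 or fenofibrate 3, with adjusted p up to 0.0731. Eif2b4 shares exon sequence with Snx17 on the other strand. The remaining subunits ranged from -0.16 for Eif2b3 (gamma) to 0.07 for Eif2b2 (beta). Of these, Eif2b3 and Eif2b5, the catalytic epsilon subunit, had all fenofibrate libraries below the controls. Eif2b5 was called lower in 4 of 14 alternatives, among them without fenofibrate 3, and Eif2b1 (alpha) in 2, both limma fits.

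Eif2a and Eif2d encode monomeric proteins, outside the eIF2 complex, that can bring a tRNA to the ribosome. Eif2d had 808, 818 and 840 counts in control and 946, 973 and 964 in fenofibrate libraries. It rose, by a log2 fold change of 0.23 ± 0.06 (edgeR, adjusted p = 0.0127), and lost the call with limma on log2(FPKM + 0.5) at adjusted p = 0.0508. Its exons overlap Rassf5 on the other strand. Eif2a had a log2 fold change of 0.11 with overlapping groups.

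eIF3, the largest of the factors, is the platform on which the other factors meet the small subunit. Of its 14 genes, 4 fell, 1 rose and 9 were not called (35.7% called, against 39.1% of all genes). The summed level was 4050 ± 64.0 normalised CPM in control and 3945 ± 6.72 in fenofibrate libraries, a ratio of 0.974. The genes that fell, Eif3b, Eif3c, Eif3d and Eif3g, encode core subunits (b and c), a subunit that contacts mRNA (d) and an RNA-binding subunit (g). The fall was 1.11-fold for Eif3c to 1.17-fold for Eif3b and Eif3g.

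Eif3b had 6262, 6503 and 6069 counts in control and 4960, 5331 and 5691 in fenofibrate libraries. The groups did not overlap. Its log2 fold change was -0.23 ± 0.04 (edgeR, adjusted p = 0.00215).

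Eif3d fell from 4111, 4129 and 4062 counts to 3349, 3654 and 3501, a log2 fold change of -0.22 ± 0.04 (edgeR, adjusted p = 0.00339). Its exons overlap the antisense gene Gm17638. Eif3g fell from 1247, 1276 and 1285 counts to 999, 1145 and 1103, a log2 fold change of -0.22 ± 0.05 (edgeR, adjusted p = 0.0116). Every fenofibrate library of both genes lay below every control.

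Eif3c fell from 9626, 9517 and 9061 counts to 8025, 8608 and 8633, with a log2 fold change of -0.15 ± 0.03 (edgeR, adjusted p = 0.0101). Eif3a, the scaffold subunit that binds Eif3c in the core, moved the other way, from 14567, 15071 and 13428 counts to 14548, 15729 and 16446. In normalised CPM its fenofibrate libraries, 1097, 1113 and 1141, were all above the controls at 1048, 1050 and 973. The log2 fold change was 0.13 ± 0.04 (edgeR, adjusted p = 0.0381), but the call held in 2 of 14 alternatives and was lost whichever library was left out, with adjusted p up to 0.22 over all alternatives.

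The other eIF3 genes, Eif3e, Eif3f, Eif3h, Eif3i, Eif3j1, Eif3j2, Eif3k, Eif3l and Eif3m, had log2 fold changes from -0.12 to 0.07. Eif3l had all its fenofibrate libraries below the controls and was called lower in 3 of 14 alternatives, with library totals and in both limma fits. Eif3e had all its fenofibrate libraries above. Eif3j1 and Eif3j2 encode the loosely bound j subunit and are 99.4% identical over 2379 bases, so reads may be split between them. Eif3j1 had 2385, 2642 and 2235 counts in control and 2116, 2362 and 2178 in fenofibrate libraries. Eif3j2 had 648, 566 and 537 in control and 556, 636 and 634 in fenofibrate libraries. With the counts of Eif3j2 added to those of Eif3j1, the log2 fold change was -0.08 ± 0.05 (edgeR, adjusted p = 0.287).

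At the cap, Eif4ebp2, Eif4enif1 and Eif4g1 fell, Eif4g2 rose, and the genes of the eIF4E family were not called. The share called was 50% of 2 tested 4E-BP genes, 66.7% of 3 eIF4G genes and 0% of 3 tested eIF4E genes. Eif4enif1 is the 1 gene of its group. Over all genes the share was 39.1%. Eif4e, which encodes the cap-binding protein itself, had 2612, 2561 and 2431 counts in control and 2304, 2720 and 2482 in fenofibrate libraries. The groups overlapped, and the log2 fold change was -0.01 ± 0.06 with a 95% interval from -0.14 to 0.12 (edgeR, adjusted p = 0.893). Its relatives Eif4e2, which encodes the cap-binding repressor 4EHP, and Eif4e3 had values of 0.03 and 0.08. Eif4e1b had 0 counts in all 6 libraries.

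Eif4ebp2 (chr10:61428491-61452661, minus strand), whose promoter is printed above, encodes 4E-BP2 and showed the largest fall of the tested initiation factor genes. It had 5974, 6488 and 6113 counts in control and 4361, 4495 and 4941 in fenofibrate libraries. The lowest control library stood well above the highest fenofibrate library, at 430 against 343 normalised CPM. The level fell from 442 ± 11.1 to 330 ± 12.4 normalised CPM, a log2 fold change of -0.42 ± 0.04 or 1.34-fold (edgeR, adjusted p = 0.000249).

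Eif4ebp1, which encodes 4E-BP1, had 1237, 1358 and 1344 counts in control and 1148, 1205 and 1124 in fenofibrate libraries. In normalised CPM all fenofibrate libraries lay below the controls, but the log2 fold change of -0.17 ± 0.06 was not called (edgeR, adjusted p = 0.0607). It was called in 3 of 14 alternatives, with library totals and in both limma fits. Eif4ebp3 was near the limit of 0, with 2, 2 and 0 counts in control and 5, 7 and 4 in fenofibrate libraries, and could not be tested.

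The count of Eif4ebp1 and Eif4ebp2 per Eif4e count, a ratio chosen after the values were seen, was 2.76, 3.06 and 3.07 in control and 2.39, 2.1 and 2.44 in fenofibrate libraries. The groups did not overlap (two-sided exact permutation p = 0.1, the smallest possible here). Eif4enif1 encodes 4E-T, which carries eIF4E into the nucleus and into processing bodies. It had 1400, 1413 and 1388 counts in control and 998, 1083 and 1054 in fenofibrate libraries, all lower, and fell by 0.41 ± 0.05 on the log2 scale (edgeR, adjusted p = 0.000442).

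The eIF4G genes split. Eif4g1 (chr16:20668313-20692884, plus strand), the main scaffold of eIF4F, had 12410, 14575 and 13397 counts in control and 9747, 11877 and 10933 in fenofibrate libraries. The groups did not overlap, and the level fell from 960 ± 61.8 to 778 ± 55.2 normalised CPM (log2 fold change -0.30 ± 0.06, edgeR adjusted p = 0.00795).

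Eif4g2 encodes DAP5, a relative of eIF4G that lacks the eIF4E-binding region. Its counts were 18607, 17910 and 17431 in control and 19564, 19566 and 21249 in fenofibrate libraries, all higher. It rose by 0.17 ± 0.04 on the log2 scale (edgeR, adjusted p = 0.0139), a call lost without control 2 and in the fits with library totals and with FPKM, at adjusted p up to 0.0734. Each of these genes holds a small nucleolar RNA within its exons on the same strand.

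Eif4g3, a further scaffold paralog, had a log2 fold change of 0.01 with overlapping groups. Added up, the 3 eIF4G genes gave 2409 ± 23.8 normalised CPM in control and 2389 ± 4.31 in fenofibrate libraries, a ratio of 0.992. Eif4g2 counts per Eif4g1 count, chosen after the values were seen, were 1.5, 1.23 and 1.3 in control and 2.01, 1.65 and 1.94 in fenofibrate libraries (two-sided exact permutation p = 0.1, the smallest possible here). Every fenofibrate library was above the controls for Eif4g2 and below them for Eif4g1, so this outcome was fixed beforehand.

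**Figure D3:**
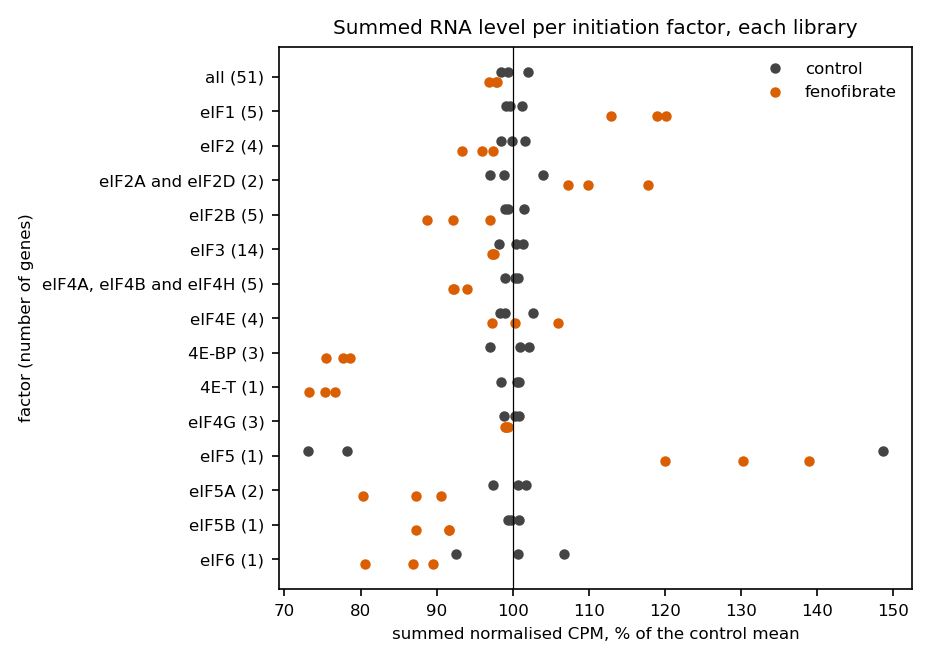
Summed normalised CPM of the genes of each factor in each library, as a percentage of the control mean, with the number of genes in brackets. The fenofibrate libraries lie close to the control mean for eIF3 and eIF4G and below it for the 4E-BPs, 4E-T and eIF5A, at ratios of 0.772, 0.751 and 0.860, while eIF1 stands at 1.17.

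In the group of the helicase eIF4A and its cofactors, 3 of 5 genes fell and 1 rose (80% called, against 39.1% of all genes). The largest fall was that of Eif4b. Eif4b encodes the RNA-binding protein that stimulates the helicase and had 7063, 7243 and 7000 counts in control and 5143, 5662 and 5633 in fenofibrate libraries. All fenofibrate libraries were lower, and the controls differed little among themselves. The level fell from 507 ± 1.92 to 393 ± 6.66 normalised CPM, a log2 fold change of -0.37 ± 0.03 (edgeR, adjusted p = 0.000156, the smallest of the initiation factor genes).

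Eif4h, a smaller relative of Eif4b, fell from 3904, 4081 and 4130 counts to 3353, 3792 and 3847, with a log2 fold change of -0.13 ± 0.04 (edgeR, adjusted p = 0.0403). This call was lost in 9 of 14 alternatives, among them leaving out any 1 library, with adjusted p up to 0.115. Eif4a3 encodes the helicase of the exon junction complex, which marks spliced mRNA. It fell from 1599, 1587 and 1502 counts to 1288, 1403 and 1373, without overlap in normalised CPM (log2 fold change -0.20 ± 0.05, edgeR adjusted p = 0.0115).

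Eif4a2, which encodes one of the helicases of eIF4F, rose. It had 2810, 3184 and 2736 counts in control and 3364, 3667 and 3852 in fenofibrate libraries, all higher, and went from 207 ± 12.6 to 260 ± 6.78 normalised CPM (log2 fold change 0.33 ± 0.05, edgeR adjusted p = 0.00219). Exons of Eif4a2 overlap Rfc4 on the other strand and 5 small nucleolar RNAs on its own. Its paralog Eif4a1 had 1804, 1879 and 1978 counts in control and 2102, 2057 and 1898 in fenofibrate libraries, a log2 fold change of 0.11 ± 0.07 (edgeR, adjusted p = 0.284). The groups overlapped.

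The count of Eif4a1 cannot be read alone. The processed pseudogene Eif4a-ps4 (chr1:60703932-60705149, GRCm38) is 99.9% identical to an Eif4a1 transcript over 1218 bases, with 1 substitution, G550A, counted from 1 at the 5′ end of that transcript in GENCODE M21. It had 8512, 8638 and 8217 counts in control and 8024, 8636 and 8935 in fenofibrate libraries. That was 4.15 to 4.72 times the count of Eif4a1 in control and 3.82 to 4.71 times in fenofibrate libraries. The 61 bases around the substitution, in capitals, are shown because, within the aligned bases, only reads over this position differ between the gene and its copy:
Eif4a1: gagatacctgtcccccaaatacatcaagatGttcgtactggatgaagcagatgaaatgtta
Eif4a-ps4: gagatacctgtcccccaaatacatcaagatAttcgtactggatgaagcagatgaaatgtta

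With the copies added to Eif4a1, the log2 fold change was 0.04 ± 0.03 with a 95% interval from -0.03 to 0.10 (edgeR, adjusted p = 0.33). Eif4a2 counts per count of Eif4a1 and Eif4a-ps4 together were 0.272, 0.303 and 0.268 in control and 0.332, 0.343 and 0.356 in fenofibrate libraries. The groups did not overlap (two-sided exact permutation p = 0.1, the smallest possible here, ratio chosen after the values were seen). Adding the copies of all initiation factor genes to the gene they match best, an alternative chosen after seeing the data, kept all 22 calls.

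**Figure D4:**
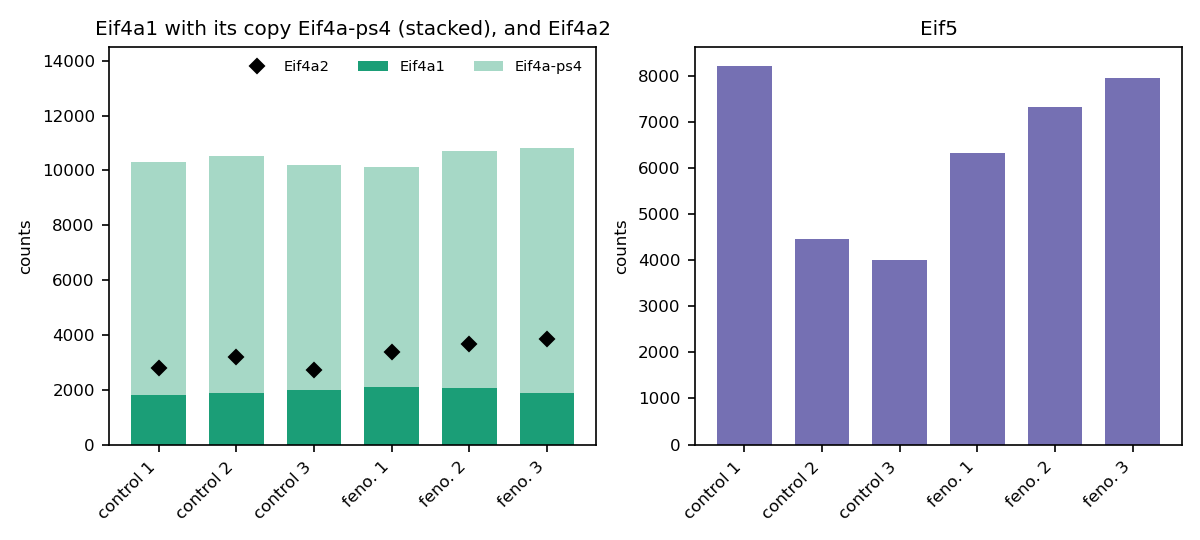
Left, counts of Eif4a1 and its pseudogene Eif4a-ps4 (stacked bars) and of Eif4a2 (diamonds) in each library. Right, counts of Eif5 in each library, where control 1 at 8208 stands above all others and controls 2 and 3 below them.

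eIF5A relieves ribosomes that stall on difficult peptide stretches and carries hypusine, an amino acid made from spermidine. Both of its genes fell, where 39.1% of all genes were called. Eif5a had 7614, 7509 and 7493 counts in control and 5754, 6655 and 7075 in fenofibrate libraries, with fenofibrate 1 the lowest and no overlap. Its log2 fold change was -0.21 ± 0.05 (edgeR, adjusted p = 0.0132). The paralog Eif5a2 had 457, 477 and 445 counts in control and 323, 383 and 376 in fenofibrate libraries, also without overlap, with a log2 fold change of -0.34 ± 0.07 (edgeR, adjusted p = 0.00667).

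Eif6 encodes the factor that keeps the large ribosomal subunit from joining too early. It had 986, 884 and 924 counts in control and 710, 817 and 858 in fenofibrate libraries, without overlap. It fell, with a log2 fold change of -0.22 ± 0.07 (edgeR, adjusted p = 0.0428). The call was lost in 8 of 14 alternatives, among them leaving out any library but control 2, with adjusted p up to 0.13. Exons of Eif6 overlap the antisense gene Gm16098.

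In CPM per kilobase of merged exon, a level per length, the control level was highest for Eif5a at 231 ± 5.66, followed by Eif3c at 195 ± 6.21 and Eif3h at 152 ± 3.79. Eif3b at 136 ± 2.60, Eif4g1 at 134 ± 8.46 and Eif4g2 at 129 ± 5.21 came next and did not differ beyond their spread. In the fenofibrate libraries Eif4g2 stood at 139 ± 4.71 and Eif4g1 at 105 ± 7.69. Eif1 stood at 96.6, 96.6 and 107 in control and at 145, 147 and 123 in fenofibrate libraries on the same scale. Eif4ebp2 stood at 77.8 ± 1.87 in control and Eif4ebp1 at 43.5 ± 1.83, both above Eif4e at 30.7 ± 1.16. The lowest control level among the tested genes was that of Eif2b3, at 3.53 ± 0.234. This order depends on the length used and on how copies are counted. Eif3a stood at 119 ± 5.54, but its bounds in the table differ from those in GENCODE M21. Its deposited FPKM used 0.593 times the merged exon length, and at 202 ± 9.34 in control was the highest of the 51 genes. Eif4a1 stood at 31.7 ± 1.65 without the counts of Eif4a-ps4 and cannot be placed in the order.

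Overlapping genes touch 19 of the 51 genes. Among the 30 tested genes with no exon overlap, 11 fell and 2, Eif1 and Eif3a, rose (43.3% called, against 39.1% of all genes). Among the 11 tested genes with an exon overlap on the other strand, 3 rose and 4 fell (63.6% called, against 39.1% of all genes). Those that rose were Eif1b, Eif2d and Eif4a2, and those that fell were Eif2b4, Eif3d, Eif5b and Eif6.

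The genes that act with the initiation factors were read from 10 lists with 63 genes tested, of which 10 rose and 9 fell. That is 30.2% called, against 39.1% of all genes. With library totals 7 were called higher and 12 lower, and in each limma fit 6 higher and 13 lower. Eif2ak3, Ddit4 and Atf3 changed by more than 2-fold. Eif2ak3, which encodes the endoplasmic reticulum kinase PERK, had 1282, 1266 and 1259 counts in control and 576, 625 and 649 in fenofibrate libraries. Every fenofibrate library was far below the controls, and the gene fell 2.05-fold (log2 fold change -1.03 ± 0.05, edgeR adjusted p = 1.67e-05). The other 3 eIF2 kinases were not called (25% called in this list, against 39.1% of all genes).

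Of the 5 genes of the eIF2 phosphatase, 1 rose (20% called, against 39.1% of all genes). This was Ppp1r15b, the constitutive regulatory subunit, with a log2 fold change of 0.16 ± 0.04 (edgeR, adjusted p = 0.0122, lost in 4 of 14 alternatives). The inducible subunit Ppp1r15a, named after its values were seen, had 348, 379 and 366 counts in control and 541, 372 and 551 in fenofibrate libraries. Fenofibrate 2 lay among the controls, and the log2 fold change of 0.43 ± 0.15 was not called (edgeR, adjusted p = 0.0585). Without fenofibrate 2 and in DESeq2 it was called.

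ATF4 is the transcription factor whose mRNA is translated when eIF2 is phosphorylated. Of the 12 genes of the list of Atf4 and genes it induces, all tested, 4 rose and 3 fell. The share called was 58.3%, against 39.1% of all genes. Atf3, a stress transcription factor, rose 5.38-fold from 92, 86 and 115 counts to 517, 565 and 487 (edgeR, adjusted p = 2.43e-05). The amino acid transporter genes Slc7a11 and Slc7a5 rose by 0.67 and 0.15 on the log2 scale, the latter lost in 8 of 14 alternatives. Ddit3, which encodes the stress transcription factor CHOP, rose from 981, 1020 and 1011 counts to 1137, 1142 and 1181 (log2 fold change 0.21 ± 0.05, edgeR adjusted p = 0.0133). Its groups did not overlap in normalised CPM, and its exons overlap Mars and Gm4189 on the other strand.

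Sesn2, an inhibitor of mTORC1, had a log2 fold change of -0.82, and the serine synthesis genes Phgdh and Psat1 of -0.74 and -0.67. All 3 fell. Atf4 itself had a log2 fold change of -0.09 (edgeR, adjusted p = 0.335, called without control 3 at adjusted p = 0.0362).

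mTORC1 is the kinase complex that phosphorylates the 4E-BPs. Of its 15 listed genes, 2 fell and 1 rose (20% called, against 39.1% of all genes). Ddit4, which encodes the mTORC1 inhibitor REDD1, fell 2.21-fold from 612, 534 and 591 counts to 250, 235 and 297 (edgeR, adjusted p = 0.000196). Larp1, which binds mRNAs with a terminal oligopyrimidine tract, fell by 0.30 ± 0.03 on the log2 scale, and Rheb, the activator of mTORC1, rose by 0.19 ± 0.04, a call lost in both limma fits at adjusted p up to 0.0508. For Mtor itself the log2 fold change was 0.06 (edgeR, adjusted p = 0.484). Mknk2, one of the kinases that phosphorylate eIF4E, rose by 0.20 ± 0.04, and Mknk1 was not called (50% called, against 39.1% of all genes).

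Of the 7 elongation factor genes tested, 1 was called (14.3%, against 39.1% of all genes). This was Eef1g, which fell, with a log2 fold change of -0.22 ± 0.04 (edgeR, adjusted p = 0.00368). Eef1a1 and Eef2, which carry tRNA to the ribosome and move it along the mRNA, had values of -0.04 and -0.00. The poly(A)-binding protein gene Pabpc1 had a value of -0.02. Its partner Paip1 fell by 0.19 ± 0.06 on the log2 scale, a call lost in 7 of 14 alternatives.

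In the termination and recycling list, Mcts1, which encodes a partner of the recycling factor DENR related to eIF2D, rose from 272, 278 and 283 counts to 373, 386 and 431 (log2 fold change 0.52 ± 0.07, edgeR adjusted p = 0.00137). Etf1, the release factor, rose by 0.15 ± 0.04, a call lost in 7 of 14 alternatives. These were the only calls among the 7 genes of this list (28.6% called, against 39.1% of all genes). Neither mitochondrial initiation factor gene was called.

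Of the 4 listed genes on the path to hypusine on eIF5A, Odc1 rose and Srm fell, both genes of polyamine synthesis. That is 50% called, against 39.1% of all genes. Odc1, ornithine decarboxylase, rose from 4138, 3795 and 3808 counts to 5089, 5634 and 5675 (log2 fold change 0.49 ± 0.05, edgeR adjusted p = 0.000294). Srm, spermidine synthase, fell from 616, 617 and 600 counts to 304, 357 and 412 (log2 fold change -0.77 ± 0.09, edgeR adjusted p = 0.000503). The groups did not overlap for either gene. The hypusination enzymes Dhps and Dohh were not called.

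**Figure D5:**
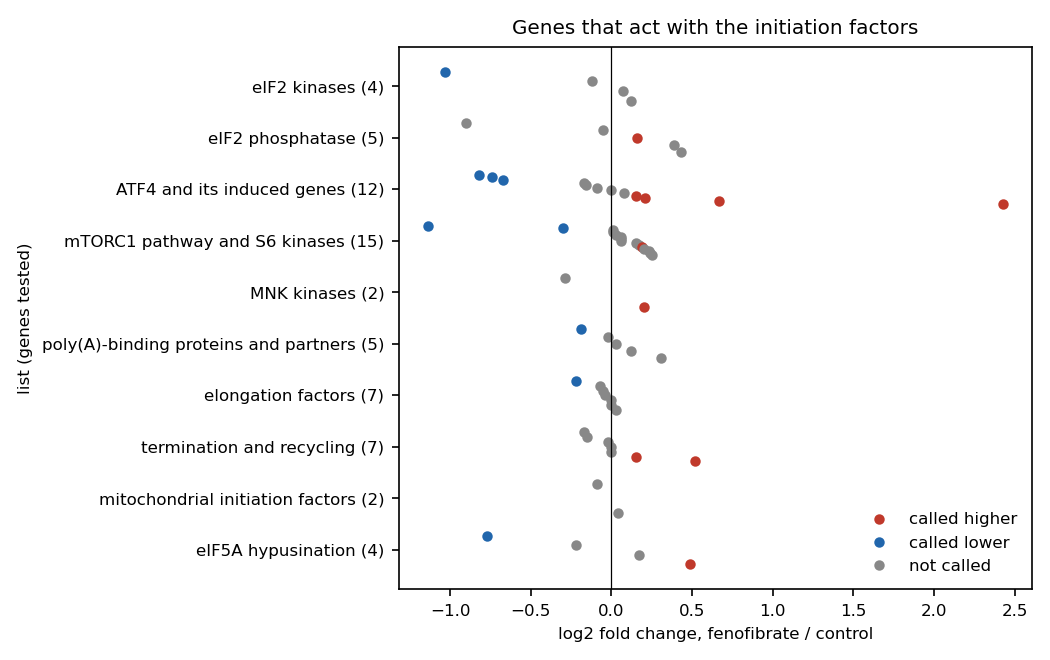
Log2 fold change, fenofibrate over control, of each tested gene in the 10 lists of genes that act with the initiation factors, with the number tested in brackets and calls at adjusted p under 0.05 in colour. Atf3 stands highest at 2.43, and Ddit4 and Eif2ak3 lowest at -1.14 and -1.03.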

How the data were processed

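The deposited table holds 6 libraries of bulk RNA sequencing, 3 control and 3 fenofibrate, grouped by sample title. Per the file headers, each library has a column of raw counts and a column of FPKM, both deposited by the authors. The build GRCm39, StringTie 1.3.0 and HISAT2 2.0.4 stand in the submitters' processing notes, with no role given. The counting tool, strand setting and filters are not given in the sources used here. Coordinates are those of GRCm38: GENCODE M21 holds 99.8% of the gene IDs, 98.7% of them with identical bounds.

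Counts were tested in R 4.3.3 with edgeR 4.0.16 (filterByExpr, TMM, glmQLFit, glmQLFTest, no covariate) over 13629 genes, with Benjamini-Hochberg adjustment over all of them. The SE is the size of the log2 fold change divided by the square root of F. The test was checked on simulated data. Alternatives were DESeq2 1.42.0, RLE or library totals for scaling, no filter, a replicate block, limma 3.58.1 on log2(FPKM + 0.5) and on log2(FPKM + 0.1), and leaving out each library. Copies were aligned with blastn 2.17.0. Levels per length divide counts by the merged exon length in GENCODE M21, because the deposited FPKM used another length. Among the initiation factor genes that length was 0.593 times (Eif3a) to 2.91 times (Eif4a2) the merged exon length. For Eif1a, Eif1ad and Eif3a the bounds in the table differ from GENCODE M21, so the merged exons may not be those counted. Promoters are from RefSeq. The labels name no molecular identifiers, and PCR copies are not independent, so limits cover counting error only.

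All initiation factor genes are accounted for. Full statistics are given, per complex, for the called genes with the largest changes (at most 4 in the more frequent direction, at most 2 in the opposite one) and for a set of key genes such as Eif4e and Eif6. The same limits hold for the lists around them, to which Atf4, Ppp1r15a, Mtor, Eef1a1, Eef2, Pabpc1, Psat1, Mknk1, Dhps and Dohh were added after their values were seen. Of the listed symbols Ddit3 stands on 2 rows of the table, and the gene with the longer exons was taken, a choice made after its values were seen. The genes and lists were chosen with earlier results of these data known.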

Additional observations from a re-analysis of the deposited data

How the results depend on the processing

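Of the 22 calls, 19 were kept in DESeq2 and 19 with no filter on low counts, where Eif3a, Eif4h and Eif6 were lost in both. With library totals 20 were kept. The number of initiation factor genes called higher was 3 with limma on log2(FPKM + 0.5), against 6. The split of higher and lower was 3 to 21 there, 4 to 21 with log2(FPKM + 0.1) and 4 to 20 with library totals. All 3 of these fits scale by library total, so they are not independent alternatives. Their median log2 fold changes over all genes were -0.05, -0.06 and -0.06, against -0.00 in the main fit. The cause was not tested. The listed genes around them that were called higher numbered 6 in both limma fits, against 10, and the cause was not tested. Leaving out 1 library gave 4 to 6 initiation factor genes higher and 13 to 15 lower, 2112 to 2412 of all genes higher and 2136 to 2370 lower, and 8 to 11 listed genes higher and 8 to 10 lower. No called initiation factor gene changed sign. Among those not called, with library totals and in both limma fits Eif1ax was at -0.00, Eif3e at -0.02, Eif3f, Eif3h, Eif3i and Eif4e2 at -0.03, and Eif4g3 at -0.05 and -0.04. Leave-one-out ranges crossed 0 for Eif2s2 (-0.04 to 0.01), Eif3h (-0.01 to 0.04), Eif3i (-0.01 to 0.07), Eif4e (-0.06 to 0.02), Eif4g3 (-0.07 to 0.09) and Eef2 (-0.03 to 0.02), and Eef2 was 0.00 in DESeq2 and with RLE scaling. Libraries with the same replicate number did not deviate together (correlations 0.03, 0.01 and -0.00). No pairing by number was seen, but correlations over all genes cannot exclude one. With a replicate block 5 initiation factor genes were called higher and 13 lower, with Eif2b4, Eif3a, Eif4h and Eif6 lost. At this depth Eif2s3y, Eif4e1b and Eif4ebp3 could not be tested.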
